A study of Mus musculus with 12 samples.

Results

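Expression of 10 genes was followed in the mouse aorta, 9 of them candidates on chromosome 2 for a locus of atherosclerotic plaque size at the aortic root (Ath45) and 1, Plac9a on chromosome 14, a gene that the study tied to that locus from a distance. They were taken by gene symbol from the 22180 genes with a transcript cluster (probe set) named for a single symbol, and each gene was read from its brightest such cluster by the mean of the 12 arrays. The study chose its candidates partly from these same arrays, so differences among the strains in these genes are no independent evidence for the locus.

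All mice were wild-type males on regular chow with their own Apoe gene, 2 to 5 months old, of the strains 129S6/SvEvTac (129), DBA/2J (DBA) and C57BL/6 (B6). Arch tissue came from each of the 3 strains and root tissue from 129 mice, with 3 arrays in each of the 4 groups and RNA of a separate pool of 4 to 6 mice on each array. The root samples carry 1 description that says arch, but they are titled and labelled as root, which was followed here. The mapping crosses used mice that lack apolipoprotein E, which these mice do not. Values are log2 intensities as deposited, and since probes differ in brightness, the level of a gene was compared only with its own level in other groups.

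Plaque loci found by crossing inbred strains span many genes, and a candidate may differ between the parental strains in its protein sequence, its expression or neither. Among the candidates here, tissue transglutaminase and syndecan 4 act at the cell surface and in the matrix, Glut10 and Serinc3 are membrane proteins that span the bilayer many times, and Stk4, Elmo2 and Plcg1 relay signals inside the cell. Dynlrb1 is a light chain of the dynein motor, Phf20 reads histone marks, and Plac9a encodes a small protein first described in placenta.

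Plac9a has a close copy, Plac9b, in the reference sequence of chromosome 14, and the array names no cluster for Plac9b alone. RefSeq holds a promoter for 9 of the 10 genes in assembly GRCm38.p6, as 300 bases from 250 before the start to 50 after it. The promoters of the copies, at chr14:25902844-25903143 and chr14:26182302-26182601 (both on the minus strand), are shown to compare the copies. These promoters do not tell which copy the array signal comes from, and the probe sequences were not examined. Capitals mark the longest run that they share, 222 bases without a mismatch. The run fills the whole overlap of the windows, bases 1 to 222 of Plac9a and 79 to 300 of Plac9b. The bases in lower case have no counterpart in the other window.
Plac9a: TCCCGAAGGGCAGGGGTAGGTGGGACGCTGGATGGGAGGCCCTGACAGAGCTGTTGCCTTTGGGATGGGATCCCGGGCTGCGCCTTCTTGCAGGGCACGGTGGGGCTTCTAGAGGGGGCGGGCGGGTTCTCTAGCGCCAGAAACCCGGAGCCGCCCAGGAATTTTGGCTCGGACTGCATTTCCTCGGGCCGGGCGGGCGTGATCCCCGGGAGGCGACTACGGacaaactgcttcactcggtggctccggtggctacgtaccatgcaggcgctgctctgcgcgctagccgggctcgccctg
Plac9b: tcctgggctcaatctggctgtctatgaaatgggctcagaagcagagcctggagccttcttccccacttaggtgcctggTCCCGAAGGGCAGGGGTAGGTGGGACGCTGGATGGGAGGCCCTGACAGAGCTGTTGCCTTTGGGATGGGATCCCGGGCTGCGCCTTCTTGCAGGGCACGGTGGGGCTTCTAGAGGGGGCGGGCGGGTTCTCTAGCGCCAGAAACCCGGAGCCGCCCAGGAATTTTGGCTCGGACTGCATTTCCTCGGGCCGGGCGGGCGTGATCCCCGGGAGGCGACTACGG

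The promoter of Dynlrb1, the gene of the chromosome 2 group with the largest difference between DBA and 129, lies at chr2:155236283-155236582 on the plus strand for the first of its annotated starts. Capitals mark GC boxes (GGGCGG on either strand).
Dynlrb1: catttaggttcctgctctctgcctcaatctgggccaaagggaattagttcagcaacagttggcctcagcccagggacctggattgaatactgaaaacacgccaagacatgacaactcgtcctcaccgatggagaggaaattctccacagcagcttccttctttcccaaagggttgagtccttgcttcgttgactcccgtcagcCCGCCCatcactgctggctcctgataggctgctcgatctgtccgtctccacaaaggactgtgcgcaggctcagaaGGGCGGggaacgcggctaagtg
The 9 genes have 12 promoter entries, since Dynlrb1 and Elmo2 have several starts. A GC box was found in 10 of the 12, all but 2 entries of Elmo2, and in 35.7% of the 32851 promoters in the table. The CCAAT box (CCAAT on either strand) was found in 5 of the 12, against 37.4% of all promoters, and the letters TATAAA, searched on either strand too, in 1 of the 12, against 13.6%. Matches were counted also where they overlapped. The promoter of Plac9a held 4 GC boxes, some of them overlapping, and had a GC content of 67.7%, against a median of 52.7% over all promoters. A match of letters is a description of the sequence and no evidence of binding, and the sequences are those of the reference strain, so differences of DBA or 129 from it are not shown here.

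The tissue labels were checked by summed signal of marker genes on the log2 scale. Smooth muscle markers summed to between 15.09 and 15.34 on all arrays, and endothelial markers to between 12.71 and 13.05. Arrays with transcripts of other organs stood apart: DBA arch replicate 2 held heart and lung transcripts (Nppa 12.86, Scgb1a1 12.08 and Sftpc 10.01), and B6 arch replicate 1 held the liver transcript Alb at 12.75, with fat cell markers at 12.31 against 13.86 to 14.57 on the other arch arrays. T cell and thymocyte markers summed to 10.25 to 11.23 in 129 arch, to 8.58 to 9.62 in DBA arch, to 8.35 to 10.46 in B6 arch and to 7.87 to 8.26 in 129 root. In such bulk tissue, fewer cells of a type cannot be told apart from less RNA per cell.

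Plac9a was lower in the 129 aorta than in either other strain, and it alone of the 10 genes passed the test between strains. Its log2 intensities in DBA arch were 10.92, 10.87 and 10.99. They were 11.02, 10.70 and 11.0 in B6 arch. In 129 arch the values were 10.12, 10.05 and 10.17. The 3 arrays of 129 arch all lay below all 6 arrays of DBA and B6 arch, and only B6 arch replicate 2 was somewhat lower than the rest of its group. In 129 root Plac9a had values of 9.90, 9.88 and 9.89, below every arch array of any strain.

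DBA arch exceeded 129 arch in Plac9a by 1.76-fold (log2 difference 0.82 ± 0.12, SE, 95% interval of the fold 1.47 to 2.11, adjusted p = 0.0100, limma with Benjamini-Hochberg adjustment over all genes). B6 arch exceeded it by 1.73-fold (0.79 ± 0.12, 1.45 to 2.08, adjusted p = 0.0142). These comparisons share the 129 arrays. Over all genes, 1.44% passed the test between DBA and 129 arch and 1.45% between B6 and 129 arch, and 1 of the 10 genes did so in each. Against the mean of DBA and B6 arch, Plac9a was lower in 129 arch by a log2 difference of -0.80 ± 0.10 (adjusted p = 0.00624, limma), a contrast in which 1.24% of all genes passed.

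DBA and B6 arch differed by 0.02 ± 0.12 in Plac9a (95% interval of the fold 0.847 to 1.22, adjusted p = 0.968, limma). In the root of 129 mice the mean lay 0.22 ± 0.08 below that of the arch, a fold of 0.859 (0.752 to 0.981), which did not pass the adjusted test (adjusted p = 0.124, limma). The summed T cell and thymocyte markers given above differed between the groups too, and their part in the values of Plac9a was not tested. Without the arrays that held liver, heart or lung transcripts the call of Plac9a against 129 was kept in both comparisons. The call was lost when single arrays were left out, as the adjusted p between DBA and 129 rose to 0.0525 and 0.0542 without 129 arch replicate 1 or 2. Between B6 and 129 it rose to 0.0576 without B6 arch replicate 3 and to 0.0631, 0.0678 and 0.0554 without 129 arch replicates 1, 2 and 3. The contrast of 129 with the mean of the other strains kept its call in all 20 alternatives, 9 of which left out 1 array (highest adjusted p = 0.0481). Fits of only the arrays of a pair of strains and the Tukey-Kramer test of the study's methods were not run for this contrast.

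**Figure D1:**
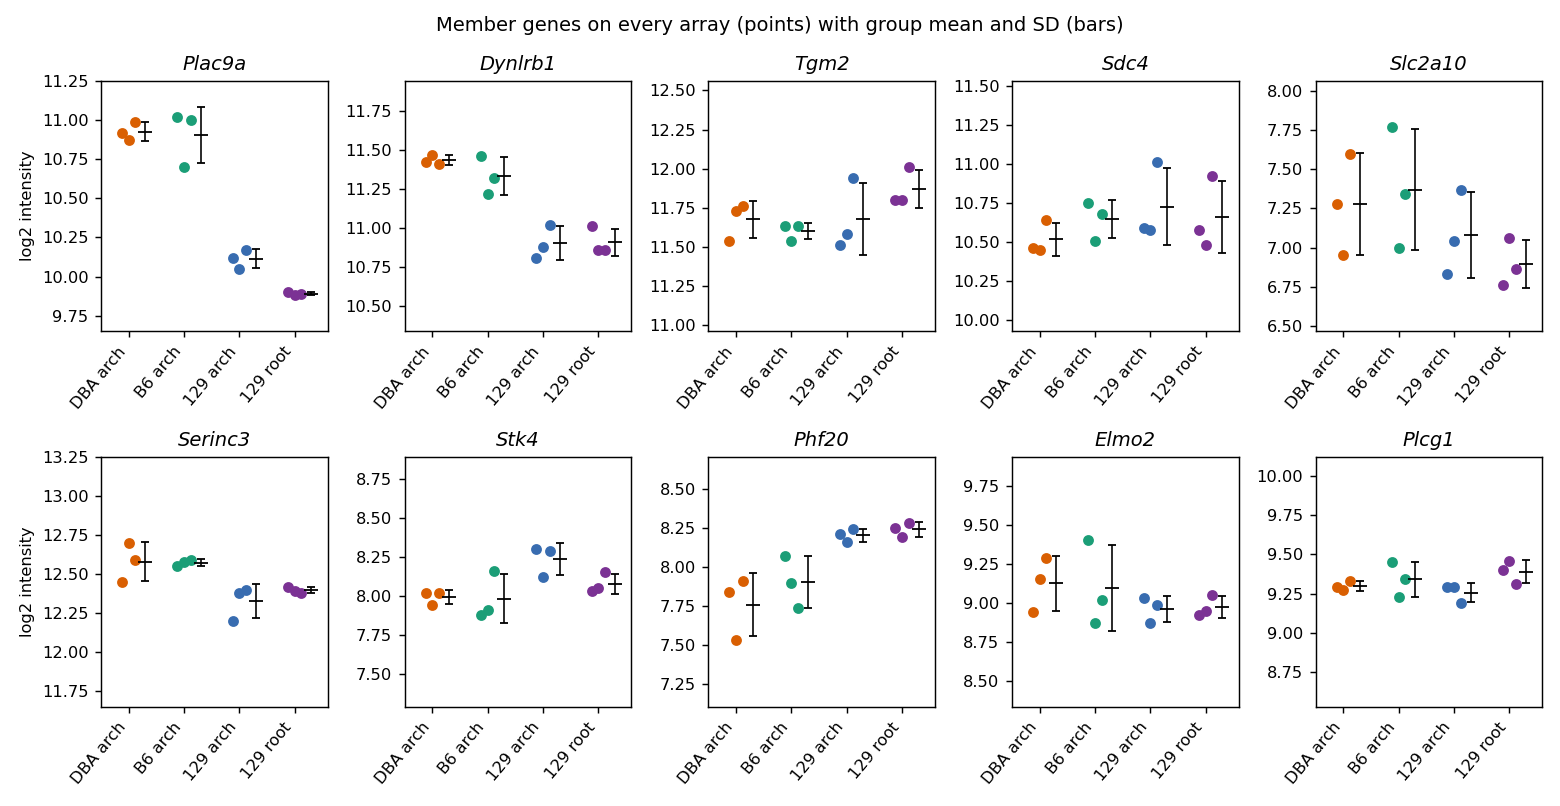
Log2 intensity of each of the 10 genes on every array (points) with the group mean and SD (bars) for DBA, B6 and 129 arch and 129 root, each panel spanning the same 1.6 units on its own part of the axis. Plac9a and Dynlrb1 sit lower on all arrays of 129 mice (Plac9a at most 10.17, Dynlrb1 at most 11.02) than on any DBA or B6 array, and Phf20 sits higher (8.16 or above).

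Plac9a was measured by 3 clusters of that symbol, and 2 of them held identical values. By cluster number they alternated with 3 clusters that each name the copies Tmem254a, Tmem254b and Tmem254c, genes of transmembrane proteins. In the reference gene order Tmem254a and Tmem254b stand next to Plac9a and Plac9b. Tmem254 was not among the genes chosen and was added after its values were seen. The brightest Tmem254 cluster had log2 values of 9.29, 9.20 and 9.64 in DBA arch, 10.28, 9.79 and 9.97 in B6 arch, 8.60, 8.55 and 8.57 in 129 arch, and 8.26, 8.52 and 8.41 in 129 root. All arrays of 129 mice lay below all arrays of the other strains.

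In a fit over all 41345 clusters of the table, the 3 Tmem254 clusters were lower in 129 arch than the mean of DBA and B6 arch by log2 differences of -1.12 to -1.23 (adjusted p = 0.00676 to 0.00943, limma), and the Plac9a clusters by -0.80 to -0.84 (adjusted p = 0.0118 to 0.0146). Their order of strains was not the same as that of Plac9a. The Tmem254 clusters were 1.44 to 1.56 higher in B6 than in 129 arch (adjusted p = 0.00324 to 0.00464), and 0.80 to 0.90 higher in DBA than in 129 arch without passing (adjusted p = 0.0552 to 0.0803). DBA arch had -0.63 to -0.66 relative to B6 arch in Tmem254, also without passing (adjusted p = 0.147 to 0.159). The flanking genes Zcchc24, Anxa11 and Cphx1 differed by between -0.07 and 0.20 in the contrast of 129 with the other strains, and none passed. Duxbl clusters of the same stretch were dim, with log2 values from 4.36 to 6.41 in the arch, and did not pass either (-0.81 to -1.03, adjusted p = 0.0884 to 0.221, limma). With no cluster named for Plac9b and 2 Plac9a clusters of equal values, signal from Plac9a and Plac9b cannot be told apart. Whether strain differences in the probed sequence or in the number of copies took part in these values was not tested.

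**Figure D2:**
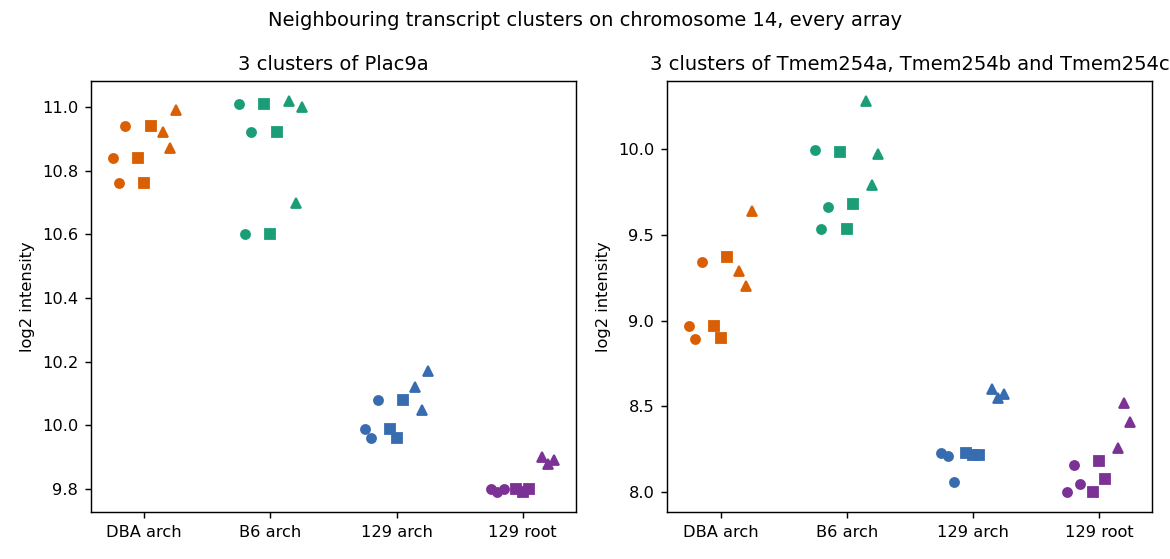
Log2 intensity on every array of the 3 clusters of Plac9a (left) and the 3 clusters of Tmem254a, Tmem254b and Tmem254c (right), each cluster with its own marker shape, by group. The circles and squares of Plac9a coincide in value, and in both panels the 129 arch and root arrays lie below every DBA and B6 array, with every B6 array above every DBA array within each Tmem254 cluster (in the brightest, 9.79 to 10.28 against 9.20 to 9.64).

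Dynlrb1, a roadblock-type light chain through which cytoplasmic dynein takes up cargo, moved in the same direction by less. Its log2 intensities were 11.42, 11.47 and 11.41 in DBA arch and 11.46, 11.22 and 11.32 in B6 arch. They were 10.81, 10.88 and 11.02 in 129 arch, and 11.01, 10.86 and 10.86 in 129 root. The 6 arrays of 129 mice lay below the 6 of the other strains, with a gap between 129 arch replicate 3 and B6 arch replicate 2. DBA arch was 1.44-fold higher than 129 arch (log2 difference 0.53 ± 0.11, SE, interval of the fold 1.22 to 1.70) and B6 arch 1.35-fold (0.43 ± 0.11, 1.14 to 1.59). Neither passed the threshold of 0.05 (adjusted p = 0.0554 and 0.113, limma), and nor did the contrast of 129 arch with the mean of both, at -0.48 ± 0.09 (adjusted p = 0.0501). This last value lay next to the threshold. With the Tukey-Kramer test left aside, Dynlrb1 passed in 6 of 21 alternatives between DBA and 129, 4 of 21 between B6 and 129, and 6 of 20 for 129 against the mean. Between DBA and 129 one of these left out B6 arch replicate 1, which enters the shared spread (adjusted p = 0.0380). Root and arch of 129 mice differed by 0.00 ± 0.10 (fold 0.855 to 1.18).

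The paralog Dynlrb2 was dim, with values between 2.56 and 4.12, and did not pass in any comparison of strains. Of the dynein subunits listed, 9 of 13 were measured, and 0 passed between strains, with differences of -0.23 to 0.37 between DBA and 129 arch. Between root and arch of 129 mice 15.8% of all genes passed, and of these subunits the intermediate chain Dync1i1 was higher in the root by 1.04 ± 0.14 (adjusted p = 0.00269, limma). Of 14 listed genes of dynactin and of the adaptors that link dynein to cargo, 11 were measured and 0 passed in any comparison.

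Phf20, a reader of methylated lysine in the NSL acetyltransferase complex, had the opposite direction. Its log2 intensities were 7.84, 7.53 and 7.91 in DBA arch, 8.07, 7.90 and 7.74 in B6 arch, 8.21, 8.16 and 8.24 in 129 arch, and 8.25, 8.19 and 8.28 in 129 root. All arrays of 129 mice lay above all arrays of DBA and B6. The differences from 129 arch were -0.45 ± 0.13 in DBA (fold 0.734, 0.596 to 0.904, adjusted p = 0.185) and -0.30 ± 0.13 in B6 (fold 0.811, 0.659 to 0.999, adjusted p = 0.414, limma), and neither passed. None of the 10 listed genes of the NSL and MLL complexes passed between strains or between root and arch, and their differences between DBA and 129 ran from -0.16 to 0.19. Its paralog Phf20l1 differed by -0.09 ± 0.10 between DBA and 129 arch.

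Serinc3, a multi-pass membrane protein of the serine incorporator family, read 12.45, 12.70 and 12.59 in DBA arch, 12.55, 12.58 and 12.59 in B6 arch, 12.20, 12.38 and 12.40 in 129 arch, and 12.42, 12.39 and 12.38 in 129 root. The arrays of 129 mice lay below those of the other strains, narrowly so. The differences of 0.25 ± 0.11 for DBA and 0.24 ± 0.11 for B6 did not pass (adjusted p = 0.400 and 0.417, limma), with folds of 1.004 to 1.41 and 0.999 to 1.40 inside the intervals. Of the other 4 Serinc genes 3 were measured, and Serinc2 stood out in DBA, at 6.33, 6.81 and 6.82 against 5.08, 4.60 and 5.50 in B6 and 4.71, 5.28 and 5.35 in 129 arch (2.91-fold over 129, adjusted p = 0.0234, and 3.02-fold over B6, adjusted p = 0.0214, limma). Serinc2 was also higher in the root than in the arch of 129 mice, by 1.53 ± 0.20 (adjusted p = 0.00237).

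Counted over the 10 genes, 4 (Plac9a, Dynlrb1 and Serinc3 lower, Phf20 higher) had no overlap between 129 arch and the 6 arrays of DBA and B6 arch, a separation found in 5.95% of all genes. Between DBA and 129 arch 5 genes were apart, against 20.9% of all genes, and between B6 and 129 arch 4, against 17.5%. These genes were chosen by the study with the arrays in view, so the counts describe the choice as much as the locus. Between DBA and B6 arch the differences of the 10 genes ran from -0.14 to 0.10, and 0 of 10 passed, where 1.55% of all genes did. The median difference of the 10 genes was 0.10 between DBA and 129 arch and 0.11 between B6 and 129 arch, beside 0.00 and -0.02 over all genes.

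**Figure D3:**
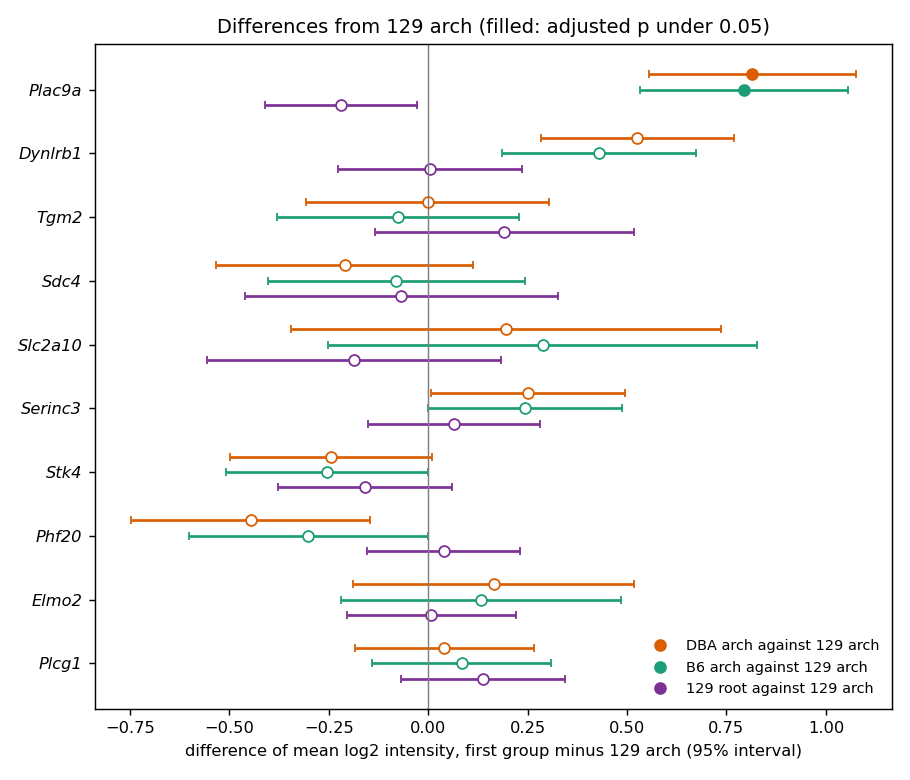
Difference of mean log2 intensity from 129 arch (horizontal axis) with its 95% interval for the 10 genes in DBA arch, B6 arch and 129 root, filled where the adjusted p is under 0.05. Plac9a in DBA (0.82) and B6 (0.79) are the filled points, Dynlrb1 (0.53 and 0.43) and Phf20 (-0.45 and -0.30) lie away from 0 without passing, and in DBA and B6 arch the intervals of Slc2a10 are the widest.

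Stk4 (Mst1), the kinase that opens the Hippo cascade, read 8.02, 7.94 and 8.02 in DBA arch, 7.88, 7.91 and 8.16 in B6 arch, 8.30, 8.12 and 8.29 in 129 arch, and 8.03, 8.05 and 8.15 in 129 root. DBA arch lay below 129 arch on all arrays, while 1 array of B6 overlapped with 129. Its differences from 129 arch were -0.24 ± 0.11 in DBA and -0.25 ± 0.11 in B6 (adjusted p = 0.440 and 0.415, limma), with folds down to 0.708 and 0.703 within the intervals. Listed genes were looked up by a single symbol each, and among Hippo pathway genes Ctgf and Cyr61 were not found under these names. Of the 20 other Hippo pathway genes listed, 16 were measured and 0 passed between strains. In the root 5 of them were higher than in the arch and 0 lower, led by the target Ankrd1 (2.38 ± 0.19, adjusted p = 0.000355) and the TEAD factors Tead2 (0.75 ± 0.16, adjusted p = 0.0206) and Tead4 (0.43 ± 0.10, adjusted p = 0.0235, limma), beside heart muscle markers that summed to 10.49 to 11.29 in the arch and to 13.96 to 14.51 in the root of 129 mice. Ankrd1 is abundant in heart muscle, and its part in this count was not tested. Of all genes, 15.8% passed between root and arch.

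Tgm2 crosslinks matrix proteins and also binds GTP. Its values were 11.54, 11.73 and 11.76 in DBA arch, 11.63, 11.54 and 11.63 in B6 arch, 11.51, 11.58 and 11.94 in 129 arch, and 11.80, 11.80 and 12.01 in 129 root. The arch groups overlapped, with 129 arch replicate 3 the highest of the arch arrays. The root arrays overlapped with 129 arch through that replicate and lay above all DBA and B6 arch arrays. DBA and 129 arch differed by 0.00 ± 0.13 (fold 0.809 to 1.23), and B6 and 129 arch by -0.08 ± 0.13 (0.768 to 1.17). Of the 7 other transglutaminases and 7 measured substrates and receptors, 0 passed between strains. In the root, F13a1 (0.83 ± 0.16, adjusted p = 0.0138), a chain of clotting factor XIII that macrophages make, and Tgm1 (0.44 ± 0.11, adjusted p = 0.0368) were higher and Tgm5 (-0.42 ± 0.08, adjusted p = 0.0163) lower than in the arch, beside macrophage markers at 12.03 to 12.20 in the root and 10.18 to 10.79 in the arch. Lrp1 (0.46 ± 0.08, adjusted p = 0.0106) was higher and the adhesion receptor Adgrg1 (-1.10 ± 0.11, adjusted p = 0.000930, limma) lower there. The part of macrophages in these root values was not tested, and over all genes 15.8% passed between root and arch.

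Sdc4, a heparan sulfate proteoglycan of focal adhesions, read 10.46, 10.45 and 10.64 in DBA arch, 10.75, 10.51 and 10.68 in B6 arch, 10.59, 10.58 and 11.01 in 129 arch, and 10.58, 10.48 and 10.92 in 129 root. All groups overlapped, and 1 array was high in each of the 129 groups. The differences from 129 arch were -0.21 ± 0.14 in DBA (fold 0.691 to 1.08) and -0.08 ± 0.14 in B6 (0.756 to 1.18). Among 10 other syndecans and partners, Fgf2, a growth factor that binds heparan sulfate, was higher in B6, at 8.46, 7.77 and 8.30, than in 129 arch, at 6.23, 6.35 and 6.40 (3.59-fold, adjusted p = 0.00157, limma), and than in DBA arch, at 6.70, 6.57 and 6.90 (adjusted p = 0.00547). In the root Sdc3 (1.86 ± 0.12, adjusted p = 0.000156), Fgf2 (1.36 ± 0.10, adjusted p = 0.000322) and Sdc2 (0.39 ± 0.09, adjusted p = 0.0271, limma) were higher than in the arch, whereas Sdc4 differed by -0.07 ± 0.17. The share of all genes that passed between root and arch was 15.8%.

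Slc2a10 encodes Glut10, a facilitative transporter whose loss in people causes arterial tortuosity. Its values were 7.28, 6.95 and 7.60 in DBA arch, 7.77, 7.0 and 7.34 in B6 arch, 6.83, 7.04 and 7.37 in 129 arch, and 6.76, 7.06 and 6.86 in 129 root. It was the most variable of the 10 genes, with a pooled SD within groups of 0.30, and all groups overlapped. The intervals were accordingly wide, with folds of 0.788 to 1.66 for DBA and 0.840 to 1.77 for B6 over 129 arch. Of 11 other glucose transporters 0 passed between strains, and in the root Slc2a5 (-2.87 ± 0.23, adjusted p = 0.000365), Slc2a3 (-1.39 ± 0.28, adjusted p = 0.0162) and Slc2a4 (-1.29 ± 0.16, adjusted p = 0.00222, limma), the insulin-responsive transporter of fat and muscle, were lower than in the arch, beside fat cell markers at 10.97 to 11.62 in the root and 14.18 to 14.42 in the arch of 129 mice. The part of fat cells in these transporter values was not tested. Among 8 measured genes of arterial matrix and its TGF-beta control, 0 passed between strains, while Tgfb1 (0.83 ± 0.09, adjusted p = 0.00143) and Smad3 (0.61 ± 0.14, adjusted p = 0.0291) were higher and elastin, Eln (-0.43 ± 0.10, adjusted p = 0.0305, limma), lower in the root. Root and arch differed past the threshold in 15.8% of all genes.

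Elmo2, which with Dock proteins activates Rac, read between 8.87 and 9.40 on all 12 arrays, and DBA arch averaged 9.13 ± 0.18, B6 arch 9.09 ± 0.27, 129 arch 8.96 ± 0.08 and 129 root 8.97 ± 0.07 (SD, n = 3). The groups overlapped, and the highest value was that of B6 arch replicate 1. The differences from 129 arch were 0.16 ± 0.16 in DBA (fold 0.878 to 1.43) and 0.13 ± 0.16 in B6 (0.859 to 1.40). Among 11 related genes, the paralog Elmo1 was 1.66-fold higher in B6 than in 129 arch (adjusted p = 0.0437), and Rac2, a Rac of blood cells, was higher in 129 arch, at 8.63, 8.43 and 8.48, than in DBA (0.641-fold in DBA, adjusted p = 0.0228) and B6 arch (0.570-fold in B6, adjusted p = 0.00841, limma). In the root Elmo1 was higher than in the arch (1.10 ± 0.10, adjusted p = 0.000575) and Rac2 lower (-0.70 ± 0.10, adjusted p = 0.00476, limma). Rac2 was highest in 129 arch, where the median sum of the T cell and thymocyte markers was highest too (10.31). Within B6 arch, replicate 3 had a marker sum of 10.46 against 8.41 and 8.35 in replicates 1 and 2. Its Rac2 was 7.68 against 7.65 and 7.78. The part of these markers in Rac2 was not tested.

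Plcg1, a phospholipase activated by tyrosine kinase receptors, was the least variable, with values from 9.19 to 9.46 over the 12 arrays. DBA arch averaged 9.30 ± 0.03, B6 arch 9.34 ± 0.11, 129 arch 9.26 ± 0.06 and 129 root 9.39 ± 0.08 (SD, n = 3). The arch groups overlapped, and the 129 root arrays lay just above those of 129 arch but among those of B6 arch. DBA differed from 129 arch by 0.04 ± 0.10 (fold 0.880 to 1.20) and B6 by 0.08 ± 0.10 (0.907 to 1.24). Of 16 listed receptors and signalling partners 13 were measured, and 0 passed between strains. In the root 4 were higher and 3 lower than in the arch, where 15.8% of all genes passed, among them the paralog Plcg2 (0.80 ± 0.13, adjusted p = 0.00598), the growth factor receptor Pdgfra (0.75 ± 0.11, adjusted p = 0.00435) and the calcium channel Itpr3 (0.86 ± 0.11, adjusted p = 0.00213) on the high side and the T cell adaptor Lat (-2.08 ± 0.22, adjusted p = 0.00112) and Itpr2 (-0.68 ± 0.11, adjusted p = 0.00579, limma) on the low side. T cell and thymocyte markers summed to 7.87 to 8.26 in the root and 10.25 to 11.23 in the arch of 129 mice. Macrophage markers (12.03 to 12.20 and 10.18 to 10.79) and fibroblast markers, of which Pdgfra is one (14.38 to 14.58 and 14.04 to 14.13), were higher in the root arrays. Their part in this count was not tested.

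The candidates were also compared between the regions of the 129 aorta. Between root and arch 15.8% of all genes passed the test, and 0 of the 10 did, with differences from -0.22 in Plac9a to 0.19 ± 0.14 in Tgm2. Plac9a and Plcg1 were the 2 genes whose root and arch arrays did not overlap, against 35.8% of all genes. The difference of Plac9a passed in some alternatives (adjusted p = 0.0356 with dim genes left out, 0.0219 with a robust trended prior and 0.0307 with arrays centred on their medians), and the array medians themselves were 0.11 higher in the root. Stk4 differed by -0.16 ± 0.09 and Plcg1 by 0.14 ± 0.09 (adjusted p = 0.310 and 0.356, limma). The strains other than 129 have no root arrays, so whether root values differ among strains cannot be read from these data.

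Along chromosome 2 the candidates lay among genes that mostly did not pass between strains. In the reference order, 167 genes tested ran from Dynlrb1 to Slc2a10, 158 of them not among the 10. Of these 158, DBA arch had 3 below the level of 129 arch (Procr, Ada and Manbal) and 0 above it, B6 arch had 2 below (Procr and Ada) and 0 above, and 1 differed between DBA and B6 (Manbal, lower in DBA). Over all genes 1.44%, 1.45% and 1.55% passed in these comparisons, so few calls are no trait of this stretch. Procr, the endothelial receptor of protein C, had 8.34, 8.15 and 8.21 in 129 arch, above 7.17, 7.08 and 6.96 in DBA and 7.57, 7.41 and 7.22 in B6, a log2 difference of 1.0 ± 0.11 from their mean (adjusted p = 0.00248, limma). Procr lies between Dynlrb1 and Phf20, outside the 141 genes from Phf20 to Slc2a10.

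Ada, adenosine deaminase and another candidate of the study, had 7.54, 7.28 and 7.14 in 129 arch against 5.79 to 6.19 in DBA and 6.01 to 6.56 in B6 (log2 difference from their mean 1.20 ± 0.16, adjusted p = 0.00731, limma). In 129 root Ada had values of 7.15 to 7.37. T cell and thymocyte markers summed to 10.25 to 11.23 in 129 arch and 7.87 to 8.26 in 129 root, and their part in the values of Ada was not tested. Manbal had 8.05, 8.20 and 8.62 in DBA arch against 9.13 to 9.48 in the other arch arrays (adjusted p = 0.0136 against 129 and 0.0256 against B6, limma). Of 10 other genes listed from the study for this locus, not all of them its final candidates, 8 were measured. Ada was the one of these that passed between strains. Pkig, which the study names as a primary candidate, and Ptprt had no cluster of a single symbol and were not measured here. In the root Lbp, which binds lipopolysaccharide, was higher than in the arch (1.23 ± 0.13, adjusted p = 0.000951) and Mybl2, a factor of dividing cells, lower (-0.51 ± 0.11, adjusted p = 0.0252, limma).

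**Figure D4:**
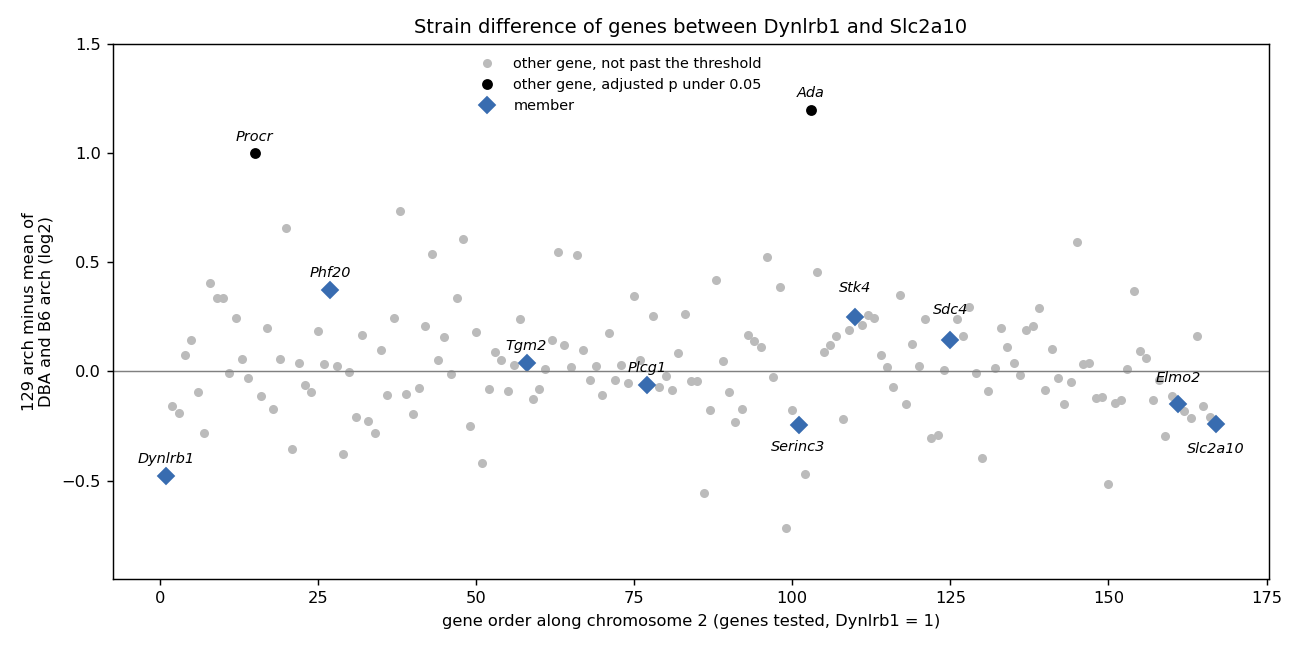
Log2 difference of 129 arch from the mean of DBA and B6 arch (vertical axis) for the 167 genes tested from Dynlrb1 to Slc2a10 in chromosome order (horizontal axis), with the 9 candidates as diamonds and the other genes as dots, black where the adjusted p is under 0.05. Procr (1.0) and Ada (1.20) are the black dots, and of the candidates Dynlrb1 (-0.48) and Phf20 (0.37) lie farthest from 0.

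The genes most like Plac9a over the 9 arch arrays were Osbpl10 (Pearson r = 0.995), Man2a2 (0.994), Dubr (0.990), Ttc3 (0.984) and Fez1 (0.980), chosen as the highest of all genes tested. Since 129 was low in all of them, r rests mostly on the strain means. With group means removed over the 12 arrays, r was 0.87, 0.60, 0.76, 0.76 and 0.46. Osbpl10, a lipid-binding protein, had 6.30, 6.34 and 6.48 in 129 arch against 7.82 to 8.51 in DBA and B6 (log2 difference -1.89 ± 0.15, adjusted p = 0.000479, limma). Fez1, an adaptor of kinesin transport, had 5.87, 5.89 and 5.89 in 129 arch against 8.12 to 8.70 (-2.44 ± 0.14, adjusted p = 8.09e-05), and the non-coding RNA gene Dubr differed by -1.71 ± 0.12 (adjusted p = 0.000236). Ttc3 differed by -0.48 ± 0.09 (adjusted p = 0.0475) and did not pass against DBA or B6 alone (adjusted p = 0.0811 and 0.0716, limma). Man2a2 differed by only -0.28 ± 0.08 and did not pass (adjusted p = 0.164, limma). In the root of 129 mice, where Plac9a did not pass, Man2a2 (0.56 ± 0.08, adjusted p = 0.00513) and Osbpl10 (0.58 ± 0.11, adjusted p = 0.0143, limma) were higher than in the arch, and the other 3 did not pass. For Dynlrb1 the most alike were Man2a2 (r = 0.971), Osbpl10 (0.969), Lynx1 (0.967), Plaat1 (0.966) and Ttc3 (0.964), and 3 of these stood in the list of Plac9a too. Plac9a and Dynlrb1 had r = 0.96 with each other over the 9 arch arrays and 0.57 with group means removed. These values describe shared arrays and 3 strains, and they say nothing of shared control.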

How the data were processed

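RNA (250 ng) from pools of 4 to 6 mice was hybridised to Affymetrix Mouse Gene 2.1 ST arrays on 1 plate. The authors used Affymetrix Expression Console, and the deposited table holds 1 normalised log2 intensity per transcript cluster and array. Their log base was taken from the lowest and highest values, 0.668 and 13.6. Detection calls, the genome build and the method of summarisation were not given in the sources used here, and dim genes may be at background. The table held 41345 clusters, 23521 of them with 1 symbol, 1820 with several and 16004 unnamed here.

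Two-sided tests used lmFit and eBayes of limma 3.58.1 (R 4.3.3), with Benjamini-Hochberg adjustment over 22180 genes and a threshold of 0.05. The 9 arch arrays formed 1 fit, as the study compared 3 strains in 1 model, and the 6 arrays of 129 mice another. The fit was also tested on simulated data. Folds are 2 to the power of the difference of mean log2 values, with 95% intervals. Each p-value reflects variation among separately pooled mice, and the number of arrays limits the precision.

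All 10 genes are named with their arrays. Of partner lists, up to 4 genes past the threshold per comparison (smallest p) and paralogs were named, and the 5 genes most alike by Pearson r for Plac9a and Dynlrb1. The genes and lists were chosen with earlier results of these data known. The fit over every cluster was added after the Plac9a and Tmem254 clusters were seen. Gene order and promoters came from RefSeq (GRCm38.p6). The alternatives were another normalisation, filter, prior, weighting, choice of arrays or clusters, a replicate block, omission of each array and the Tukey-Kramer test of the methods.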

Additional observations from a re-analysis of the deposited data

How the results depend on the processing

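Over 763 alternative values of single genes, 717 kept direction and side of the threshold, 7 lost and 20 gained a call, and 19 changed sign. The Tukey-Kramer test is not among these values. In the contrast of 129 with the mean of the other strains Plac9a was the 1 gene called, and it stayed called in all 20 alternatives. The fits of only 6 arrays and the Tukey-Kramer test compare pairs of strains and were not run for this contrast. The number of the 10 genes called rose to 2 (Plac9a and Dynlrb1) between DBA and 129, between B6 and 129 and for 129 against the mean when the dimmer genes (below the median) were left out, with a robust trended prior and with all 12 arrays in one fit. It rose to 2 with quantile normalisation (DBA against 129 and 129 against the mean), to 2, 3 and 2 with array weights (Phf20 added in B6 against 129, adjusted p = 0.0382, limma) and to 2 with every one-symbol cluster as its own feature (129 against the mean). Between root and arch it was 1 (Plac9a) without the dimmer genes, with median centring and with the robust trended prior. With only the 6 arrays of B6 and 129 arch it was 0. The methods' Tukey-Kramer test called 4 genes between DBA and 129 and 2 between B6 and 129 before adjustment, and 0 and 0 after it. Omission of 1 array gave 0 to 2 between DBA and 129 and 0 to 1 between B6 and 129. The 2 came from omission of B6 arch replicate 1, which brought Dynlrb1 to an adjusted p of 0.0380 (limma).

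The sign changed only in uncalled differences near 0. These were Tgm2 between DBA and 129 (0.0101 with quantile normalisation), Plcg1 between DBA and 129 (-0.0109 with median centring), Plac9a between DBA and B6 (-0.0128 with median centring, -0.0403 with array weights), Dynlrb1 between root and arch (-0.108 and -0.0172 likewise), and, with the pair of arrays that carried liver, heart or lung transcripts omitted, Elmo2 between B6 and 129 (-0.0175) and Phf20 between DBA and B6 (0.0525). With 1 array left out, ranges that crossed 0 were -0.0861 to 0.132 for Tgm2 between DBA and 129, -0.161 to 0.0571 between B6 and 129 and -0.0947 to 0.124 for 129 against the mean. They were -0.0175 to 0.247 for Elmo2 and -0.152 to 0.0614 for Sdc4 between B6 and 129, -0.0827 to 0.0789 for Plac9a between DBA and B6, and -0.0442 to 0.0645 for Dynlrb1 between root and arch. The cause was not tested.

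Same-numbered arrays of different groups had deviations that correlated by -0.09 to 0.16, and differently numbered arrays by -0.14 to 0.13. Every same-numbered pair with 129 root was positive, at 0.02 to 0.16. What arrays of the same number had in common was not tested. With a replicate block the genes called stayed at 1 in each comparison of strains with 129 arch (Plac9a between DBA and 129, adjusted p = 0.0248, limma). The number called stayed at 0 between DBA and B6 arch and between root and arch of 129 mice. The count over all genes ran from 73 to 1547 between DBA and 129 (320 as reported), 57 to 1514 between B6 and 129 (322), 95 to 666 for 129 against the mean (275), 81 to 1659 between DBA and B6 (344) and 2212 to 4493 between root and arch (3508). The number of arrays, 3 a group, limits the precision.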
